A study of Danaus plexippus with 36 samples.

Results

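The antennae of gravid female and male monarch butterflies (Danaus plexippus) were compared as the antennal libraries of the 2 sexes, 6 from females (animals 1, 3, 11, 18, 25 and 27) and 5 from males (animals 12, 13, 15, 16 and 20). These are 11 of the 35 libraries with counts, and the antennae of male 2 were not analysed here. All animals were adults taken from the field, so their ages and histories were not set by the study. Each animal also gave legs and proboscis, 12 libraries each. No treatment or genotype differed between the groups. The females are labelled gravid and no other female state was sampled, so sex and reproductive state cannot be told apart. Each of 2 batches in the labels held both sexes, with 3 females and 3 males of antennae in batch 1 and 3 females and 2 males in batch 2. The study's stated purpose was to find chemosensory genes that differ between tissues or between the sexes.

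Butterfly antennae carry the olfactory sensilla, hair-like organs in which the dendrites of olfactory receptor neurons are exposed to odours through pores in the cuticle. Odorant receptors in these neurons work as complexes with a shared co-receptor, and odorant-binding proteins in the fluid around them carry odours to the receptors. In monarchs the antennae also hold circadian clocks used by the sun compass during migration. Gravid females search for milkweed on which to lay eggs, and males search for mates, so the antennae of the sexes serve partly different tasks.

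The deposited gene models are named by identifiers that begin with DPOGS. Of the 15130 identifiers 0 were found in the gene table used here (RefSeq, assembly MEX_DaPlex), and the counts are not paired with names. Receptors, binding proteins, clock genes and cell type markers could therefore not be looked up, and the labelled tissue could not be checked against its defining markers. As a check without names, each antennal library was set against every other library, and 11 of 11 correlated best with another antennal library (r = 0.782 to 0.907 across genes, on log2 values). The few genes named below are given by identifier, without a role or a position, and no sequences are shown.

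Antennal libraries held 0.622 to 24.7 M counts (M, 1000000 counts), 56.4 M in females together and 22.9 M in males. The number of genes expected in a random draw of 600000 counts averaged 9847 ± 972 (SD, n = 6) in females and 9532 ± 755 (SD, n = 5) in males. The difference was within the spread between animals (exact permutation test, 2-sided, p = 0.548, adjusted p = 0.821 over 3 library measures). Within batch 1 the means were 9930 and 9604, and within batch 2 9765 and 9424. Log10 total counts (p = 0.526, adjusted p = 0.821) and the percentage of counts in the 10 most abundant genes (p = 0.827, adjusted p = 0.827) did not separate the sexes by the same exact permutation test. Libraries nevertheless stood apart within each sex. Female 18, female 11, male 12 and male 20 had 8582 to 8781 genes in the draw, and the other 7 libraries 9582 to 10714. Female 11 was also the shallowest library.

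**Figure D1:**
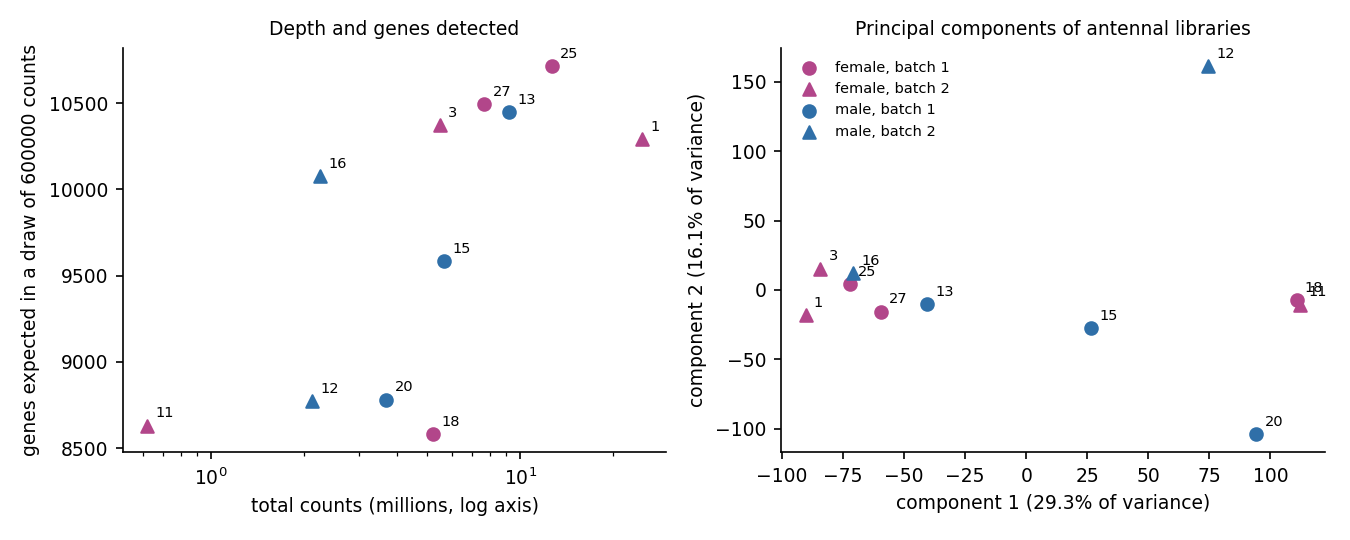
Left, genes expected in a draw of 600000 counts against total counts in units of 1000000 (log axis). Right, the first and second principal components of log2 CPM over the 11 antennal libraries, with the animal number beside each point. Females are magenta, males blue, circles batch 1 and triangles batch 2. The 4 libraries with 8582 to 8781 genes lie at the right of component 1, and each sex has libraries on both sides.

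The sexes did not form separate groups in overall expression. The median correlation across genes was 0.776 for the 25 pairs of libraries of the same sex and 0.78 for the 30 pairs of different sex. The first principal component held 29.3% of the variance, and it ran from -90.4 (female 1) to 112 (female 11), with males between -71.1 (male 16) and 94.3 (male 20). The libraries of female 18, female 11, male 20 and male 12 had the 4 highest scores, 74.4 to 112. These are the 4 libraries with the fewest genes in the draw. The second component, with 16.1% of the variance, set male 12 (161) and male 20 (-104) apart from each other and from the rest, which lay between -27.5 and 15.4.

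No gene was called between the sexes. Of 11804 genes tested, 0 (0%) had an adjusted p below 0.05 in edgeR's quasi-likelihood test with sex and batch as terms, and the lowest adjusted p was 1. At an unadjusted p below 0.05 there were 366 genes (3.10%), 253 higher in females (2.14%) and 113 lower (0.957%). If no gene differed, a share of about 0.05 of genes would be expected under that threshold, and 3.10% is less than that. With DESeq2's size factors in the same edgeR test, 241 genes were higher and 134 lower at an unadjusted p below 0.05. DESeq2 called 12 genes (0.102%), and limma voom called 0, with or without sample quality weights. A fit of all 35 libraries, in which the 3 tissues share 1 estimate of the spread, called 4 genes in antennae (0.0339%), 2 higher and 2 lower in females. That fit had no term for the animal. Batch, tested in the same antennal fit as sex, gave 1 called gene (0.00847%) and 838 genes at an unadjusted p below 0.05, and DESeq2 called 97.

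The precision of the antennal comparison was low. The common biological coefficient of variation, the typical relative spread of a gene between animals of the same sex and batch, was 0.83 in antennae, while it was 0.536 in legs and 0.718 in proboscis. The median standard error of a log2 fold change between the sexes was 0.64 in antennae, against 0.36 in legs and 0.51 in proboscis. Antennae had 5 males and the other tissues 6. The 95% interval of the sex difference lay wholly inside a 2-fold change in either direction for 1961 genes in antennae (16.6%), 5198 in legs (44%) and 3296 in proboscis (27.9%). For these 1961 genes a 2-fold difference lies outside the interval, and for the others the interval reached 2-fold in at least 1 direction or could not be fitted. Of the genes tested 85 had no count in antennae. Standard errors were smaller in genes with higher levels. In the 2951 genes with the highest antennal level, 54.5 CPM or more (a gene's counts for each 1000000 counts of its library, scaled between libraries by the trimmed mean of M values within antennae), the median standard error was 0.36, and 45.3% of the genes had an interval inside 2-fold. In the 2951 genes with the lowest level, up to 5.20 CPM, the median standard error was 1.66, and 0 genes had such an interval.

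**Figure D2:**
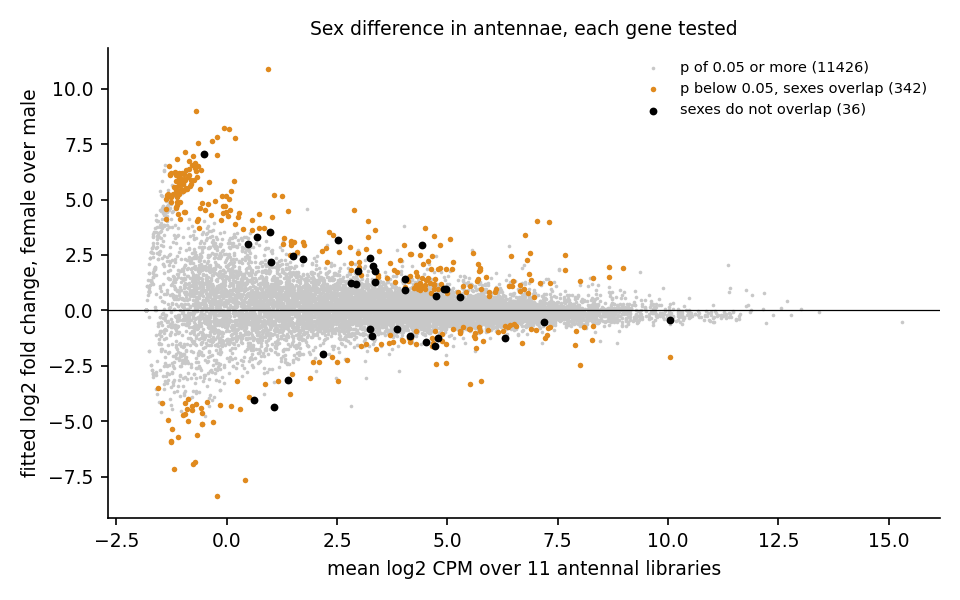
Fitted log2 fold change, female over male, against the mean log2 CPM over 11 antennal libraries, 1 point for each of 11804 genes. Orange points had an unadjusted p below 0.05 and black points are the 36 genes whose female and male libraries did not overlap. The fold changes spread widely at low levels and narrow toward high levels.

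Genes that are mainly antennal had sex differences with a median near 0, measured less precisely than those of all genes tested. The fit of all libraries gave 945 genes whose antennal level was at least 2-fold above that of legs and of proboscis at an adjusted p below 0.05, a class chosen on the tissue difference with both sexes weighted equally. Their median log2 fold change between the sexes was 0.019, against 0.048 over all genes tested, and their interquartile range ran from -0.52 to 0.59, against -0.30 to 0.50 over all genes. At an unadjusted p below 0.05 there were 22 higher and 19 lower in females, 4.34% of the class against 3.10% of all genes. For 51 of them (5.40%) the 95% interval lay inside 2-fold, against 16.6% of all genes. Their median standard error was 0.82, against 0.64 over all genes. The sexes did not overlap in 1 of them, lower in females, against 36 of all genes tested (0.305%). These genes took 20.94% ± 4.04 (SD, n = 6) of female and 20.3% ± 3.29 (SD, n = 5) of male antennal counts. In whole antennae, fewer cells of a type and less RNA per cell cannot be told apart.

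The genes that are low in antennae were counted in the same way. The 1029 genes whose antennal level was at least 2-fold under that of legs and of proboscis held 48 of the 253 genes higher in females at an unadjusted p below 0.05, or 18.97%, while they were 8.72% of all genes tested. They held 10 of the 113 genes lower in females. Their median log2 fold change was 0.14, and their median level was 6.82 CPM, against 19.3 CPM over all genes tested. Of the 11804 genes tested, the 2951 with the lowest antennal level, up to 5.20 CPM, held 110 of the same 253 genes. The part of level in the share held by the 1029 genes was not tested. The share of antennal counts in this class was 4.78% ± 0.378 (SD, n = 6) in females and 4.65% ± 0.886 (SD, n = 5) in males, with ranges of 4.18 to 5.17% and 3.23 to 5.34%. The sexes overlapped in this share, and the lowest value was that of male 12.

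In 36 genes (0.305%) the sexes did not overlap, meaning that every library of one sex lay above every library of the other, and the higher sex averaged 1 CPM or more. Females were higher in 22 (0.186%) and males in 14 (0.119%). The 22 genes had a median log2 fold change of 1.90 and the 14 genes one of -1.24. Of the 22 all were modest in level, with female means of 3.31 to 89.2 CPM. The male means of the 14 genes ran from 5.64 to 1280 CPM. The same rule gave 41 genes (0.347%) in legs and 3 (0.0254%) in proboscis. Antennae had 5 males and the other tissues 6, and a smaller group overlaps less by construction. These counts are therefore not on equal terms. Some genes meet the rule without any sex difference, and their number was not estimated. Of the 22 genes 1 was also without overlap and higher in females in legs, and 0 in proboscis, and of the 14 genes 0 in either tissue. In the legs of these animals 18 of the 22 and 13 of the 14 had a sex difference of the same sign, and in proboscis 15 and 9. Over all genes the signs were the same in 58.8% between antennae and legs and in 54.4% between antennae and proboscis. The tissues come from the same animals, so these signs are not independent.

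The gene with the smallest p among those higher in females without overlap was DPOGS207020. Its level in females was 30.2 CPM in animal 1, 19.3 in 18, 16.7 in 27, 16.4 in 25, 10.3 in 3 and 8.08 in 11. In males it was 2.66 CPM in animal 16, 2.52 in 13, 2.29 in 20, 2.09 in 15 and 0 in 12. The gap between the sexes thus ran from 2.66 to 8.08 CPM, although the lowest female value, in the shallow library of animal 11, rests on 5 counts. The means were 16.8 ± 7.81 CPM (SD, n = 6) and 1.91 ± 1.09 CPM (SD, n = 5), and the fitted log2 fold change was 3.16 ± 0.78 (SE, edgeR, unadjusted p = 0.00124, adjusted p = 1). DESeq2 called it, with a log2 fold change of 3.10 and an adjusted p of 0.0012. DPOGS207020 belongs to the 1029 genes that are low in antennae. In legs it averaged 55.1 ± 34.6 CPM in females and 23.1 ± 17.6 CPM in males (fitted log2 difference 1.27 ± 0.55, SE, adjusted p = 0.758), and in proboscis 51.7 ± 43.8 and 33.1 ± 28.3 CPM (SD, n = 6 each, scaled within each tissue). The sex difference in antennae was not separated from that in legs (log2 difference 1.78 ± 0.96, SE, adjusted p = 1) or from that in proboscis (2.44 ± 1.00, adjusted p = 1).

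DPOGS204889 was the other such gene. Females had 222 CPM in animal 3, 107 in 11, 90.2 in 25, 65.2 in 1, 29.1 in 18 and 22.6 in 27. Males had 13.6 CPM in animal 13, 13.3 in 16, 13.0 in 20, 6.44 in 15 and 0 in 12. The males therefore all lay under the lowest female, and the females spread from 22.6 to 222 CPM. The means were 89.2 ± 72.7 CPM (SD, n = 6) and 9.26 ± 5.97 CPM (SD, n = 5), and the log2 fold change was 2.96 ± 0.78 (SE, edgeR, unadjusted p = 0.00206, adjusted p = 1). DESeq2 called this gene too (log2 fold change 2.95, adjusted p = 0.0371). In legs the direction was the opposite, 8.56 ± 6.82 CPM in females and 14.5 ± 13.3 in males (log2 fold change -0.34 ± 0.46, SE, adjusted p = 1). The sex difference in antennae minus that in legs was 4.12 ± 1.21 on the log2 scale and did not pass (SE, adjusted p = 0.6). In male 12 neither of these 2 genes had a count, in a library of 2.12 M counts.

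Of the 14 genes lower in females without overlap, DPOGS211534 had the smallest p. Its level in males was 66.4 CPM in animal 13, 63.4 in 20, 52.2 in 16, 37.2 in 15 and 36.5 in 12. In females it was 31.6 CPM in animal 18, 19.8 in 25, 18.9 in 27, 17.8 in 11, 10.7 in 1 and 4.96 in 3. The gap between the sexes was narrow, with male 12 just above female 18. The means were 51.1 ± 14.1 CPM in males (SD, n = 5) and 17.3 ± 9.06 CPM in females (SD, n = 6), with a log2 fold change of -1.60 ± 0.40 (SE, edgeR, unadjusted p = 0.00127, adjusted p = 1). DESeq2 did not call it. The fitted difference had the same sign in legs (-1.16 ± 0.51, adjusted p = 0.784) and in proboscis (-0.66 ± 0.59, adjusted p = 1).

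DPOGS200512, the other gene named of these 14, had a larger fold change and lower levels. Males had 50.7 CPM in animal 12, 15.3 in 13, 4.87 in 16, 3.57 in 20 and 1.93 in 15. Females had 1.25 CPM in animal 27, 0.903 in 1, 0.572 in 3, 0.501 in 25 and 0 in animals 11 and 18. The highest female was separated from the lowest male by less than 1 CPM, and male 12 stood far above the next male. All female antennae together held 39 counts of this gene and the males 271. The log2 fold change was -4.35 ± 1.12 (SE, edgeR, unadjusted p = 0.00168, adjusted p = 1), and leaving out 1 library gave -3.35 (without male 12) to -4.98 (without female 27). DESeq2 (adjusted p = 0.00915) and the fit of all 35 libraries (adjusted p = 0.0186) called it. The gene is abundant in the other appendages, with 118 ± 77.4 CPM in female and 202 ± 131 CPM in male legs and 110 ± 49.5 and 121 ± 52.2 CPM in proboscis (SD, n = 6 each). DPOGS200512 itself belongs to the class of genes that are low in antennae. Male 12, with the highest antennal level of DPOGS200512, had the lowest share of counts in this class (3.23%). Whether the level of the gene in antennae is linked to this share was not tested.

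**Figure D3:**
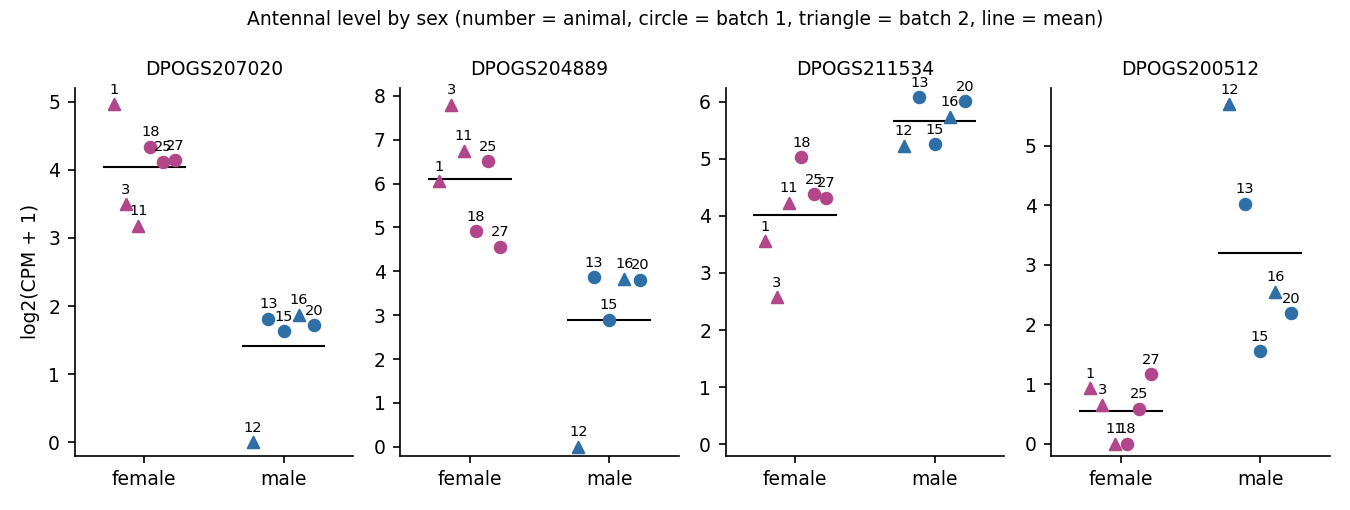
Antennal level of the 4 named genes as log2(CPM + 1), by sex, with the animal number above each point, circles for batch 1, triangles for batch 2 and a line at the mean. In each panel the 6 female libraries lie wholly above or wholly below the 5 male libraries, and male 12 lies at 0 in the 2 panels on the left.

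These 4 genes kept their direction in each batch alone. In batch 1 and batch 2 the log2 fold changes were 2.88 and 3.54 for DPOGS207020, 2.05 and 4.27 for DPOGS204889, -1.28 and -2.05 for DPOGS211534 and -3.56 and -5.35 for DPOGS200512. Since the genes were picked for not overlapping over both batches, the shared direction follows from the choice. Each batch alone gave 0 called genes in edgeR, and 385 (batch 1) and 367 (batch 2) genes had an unadjusted p below 0.05.

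Of the 12 genes called by DESeq2, 6 were higher and 6 lower in females, and 3 of the 12 had no overlap between the sexes. Their unadjusted p in edgeR ran from 0.000206 to 0.00289. The 3 most abundant, with female means of at least 400 CPM, showed a common pattern that the sex means hide. Their levels lay between 381 and 2038 CPM in the antennae of females 1, 3, 25 and 27. In females 11 and 18 they were 27.5 to 89.5 CPM, inside the range of the 5 males, 5.09 to 236 CPM. The log2 fold changes were 3.39 to 4.04 with all 11 libraries. Of the 3 genes 2 belong to the 945 mainly antennal genes, those with log2 fold changes of 3.97 and 4.04. Without the 4 libraries with the fewest genes, which include females 11 and 18, they were 3.65, 4.08 and 4.25, with adjusted p-values of 0.059, 0.052 and 0.232 in edgeR. In legs and proboscis the same 3 genes were not called between the sexes (adjusted p 0.877 or more).

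The same division of the females appeared in the genes higher in females at an unadjusted p below 0.05. In those lower it did not appear in the shares themselves, but did when these were set against all genes tested. For each female, the genes in which she lay above all 5 males were counted among the 253 genes higher in females at an unadjusted p below 0.05. Female 1 did so in 202 genes (79.8%), female 25 in 197 (77.9%), female 3 in 181 (71.5%) and female 27 in 177 (69.96%). Female 18 did so in 95 genes (37.5%) and female 11 in 79 (31.2%). Over all genes tested the shares for the 6 females were closer to each other, from 13.1% in female 11 to 20.5% in female 1. Among the 113 genes lower in females, each female lay below all males in 36.3% (female 18) to 48.7% (female 1) of genes, with female 11 at 39.8%. Over all genes tested these shares were 16.7% in female 11, 13.5% in female 18 and 4.53% (female 25) to 10.3% (female 1) in the other 4. Females 11 and 18 thus lay inside or just under the range of the other females in the 113 genes, and above it over all genes. Set against their shares over all genes, they rose less in the 113 genes than the other 4. Each male lay above all females in 51.3% (male 16) to 69.9% (male 12) of the 113 genes, against 10.7% (male 13) to 20% (male 12) of all genes. These genes were chosen on the same libraries, and none passed adjustment. The shares thus describe which animals stand out in the chosen genes and test nothing. Females 18 and 11 are from different batches and have the fewest genes in the draw, 8582 and 8631, and the part of library quality in their shares was not tested.

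**Figure D4:**
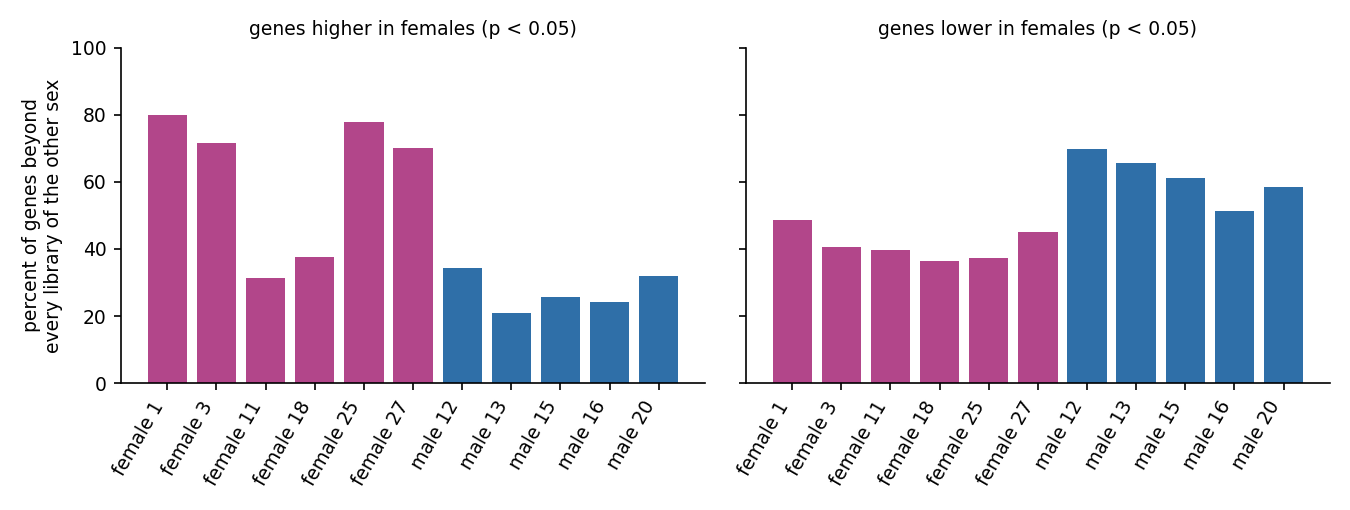
Percent of genes, for each library, in which it lay beyond every library of the other sex, among the 253 genes higher in females (left) and the 113 lower in females (right) at an unadjusted p below 0.05. Left, females 1, 3, 25 and 27 reach 69.96 to 79.8%, and females 11 and 18 reach 31.2 and 37.5%.

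Leaving out the 4 libraries with the fewest genes kept 4 females and 3 males and lowered the common biological coefficient of variation to 0.601. It still gave 0 called genes in edgeR, with 698 at an unadjusted p below 0.05 (5.91%), 456 higher and 242 lower in females. The lowest adjusted p was then 0.052, and 8 genes were below 0.1.

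Genes seen in 1 sex alone were few once every animal was asked for. Of the 15130 rows, 1 had a count in all 6 female and in no male antennal library, and 0 had a count in all 5 male and no female library. A count in at least 1 female and no male was found for 1039 rows, and the reverse for 215, with 56.4 M counts in females against 22.9 M in males. All 11 antennal libraries had a count for 6753 rows, and 1791 rows had none in antennae.

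The genes that separate the sexes in legs behaved in several ways in antennae. The leg comparison called 4 genes (0.0339%), with females above males in 3 and below them in 1. DPOGS209204, the leg gene with the largest fold change, had 488 CPM in the antennae of female 3, 374 in 1, 363 in 11, 188 in 25, 33.5 in 18 and 33.3 in 27. Males had 2510 CPM in animal 16, 557 in 12, 273 in 13, 180 in 15 and 146 in 20. The sexes overlapped in antennae, and male 16 stood far above all other animals. The antennal log2 fold change was -1.54 ± 0.51 (SE, edgeR, adjusted p = 1), and leaving out 1 library gave -0.99 (without male 16) to -2.24 (without female 25). In legs it was 6.47 ± 0.72 (SE, adjusted p = 0.00632). The test of the difference between these 2 sex differences called this gene and no other (0.00847% of genes; 440 at an unadjusted p below 0.05), with a log2 difference of -8.01 ± 1.37 (SE, adjusted p = 0.0176). Its direction held without each antennal library in turn, at -8.29 to -7.26, and the adjusted p ran from 0.015 to 0.0702. The call ended without female 1 (adjusted p = 0.0513), female 11 (0.0521), female 27 (0.0546), female 18 (0.0575) or male 16 (0.0702). Against proboscis the same difference was -7.75 ± 1.48 and did not pass (SE, adjusted p = 0.102), and that comparison called 0 genes (0%; 403 at an unadjusted p below 0.05 in edgeR). DPOGS209204 was among the 945 mainly antennal genes, a class set over both sexes together. In females alone it averaged 470 ± 499 CPM in legs and 247 ± 191 CPM in antennae (SD, n = 6 each, scaled within each tissue). In males the means were 5.15 ± 3.98 CPM in legs (SD, n = 6) and 733 ± 1006 CPM in antennae (SD, n = 5).

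DPOGS208131, also higher in female legs, was low in antennae. Females had 3.36 to 11.3 CPM, with a median of 9.61, and males 0 to 6.18 CPM, with a median of 0.908. Males 16 and 20 had no count, and the sexes overlapped. The log2 fold change was 1.65 ± 1.17 (SE, edgeR, adjusted p = 1), and its 95% interval, -0.85 to 4.15, covers both no difference and the leg value of 3.27 ± 0.45. Leaving out 1 library gave 1.28 (without male 16) to 2.66 (without male 15), with 2.41 without male 12. The difference between antennae and legs did not pass (-1.70 ± 0.90, SE, adjusted p = 1).

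DPOGS203388, lower in female legs, had no count in the antennae of 6 females, in 56.4 M counts. Of the 5 males, animal 13 had 74 counts (7.46 CPM), animal 20 had 28 (7.13 CPM), animal 16 had 2 (0.885 CPM), and animals 12 and 15 had 0. It was therefore seen in males alone but in 3 of 5. Against a floor of 3 counts over all female antennae, the summed male level was 78.4-fold higher. This figure allows for counting error in the female 0 only and takes the male counts as exact. Without male 13 it was 38.6-fold. The antennal difference was not called (edgeR, adjusted p = 1). In proboscis the pattern was alike, with 397 counts in 5 of 6 males and 0 in the 6 females. Both tissues come from the same animals as the legs in which the gene was picked.

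**Figure D5:**
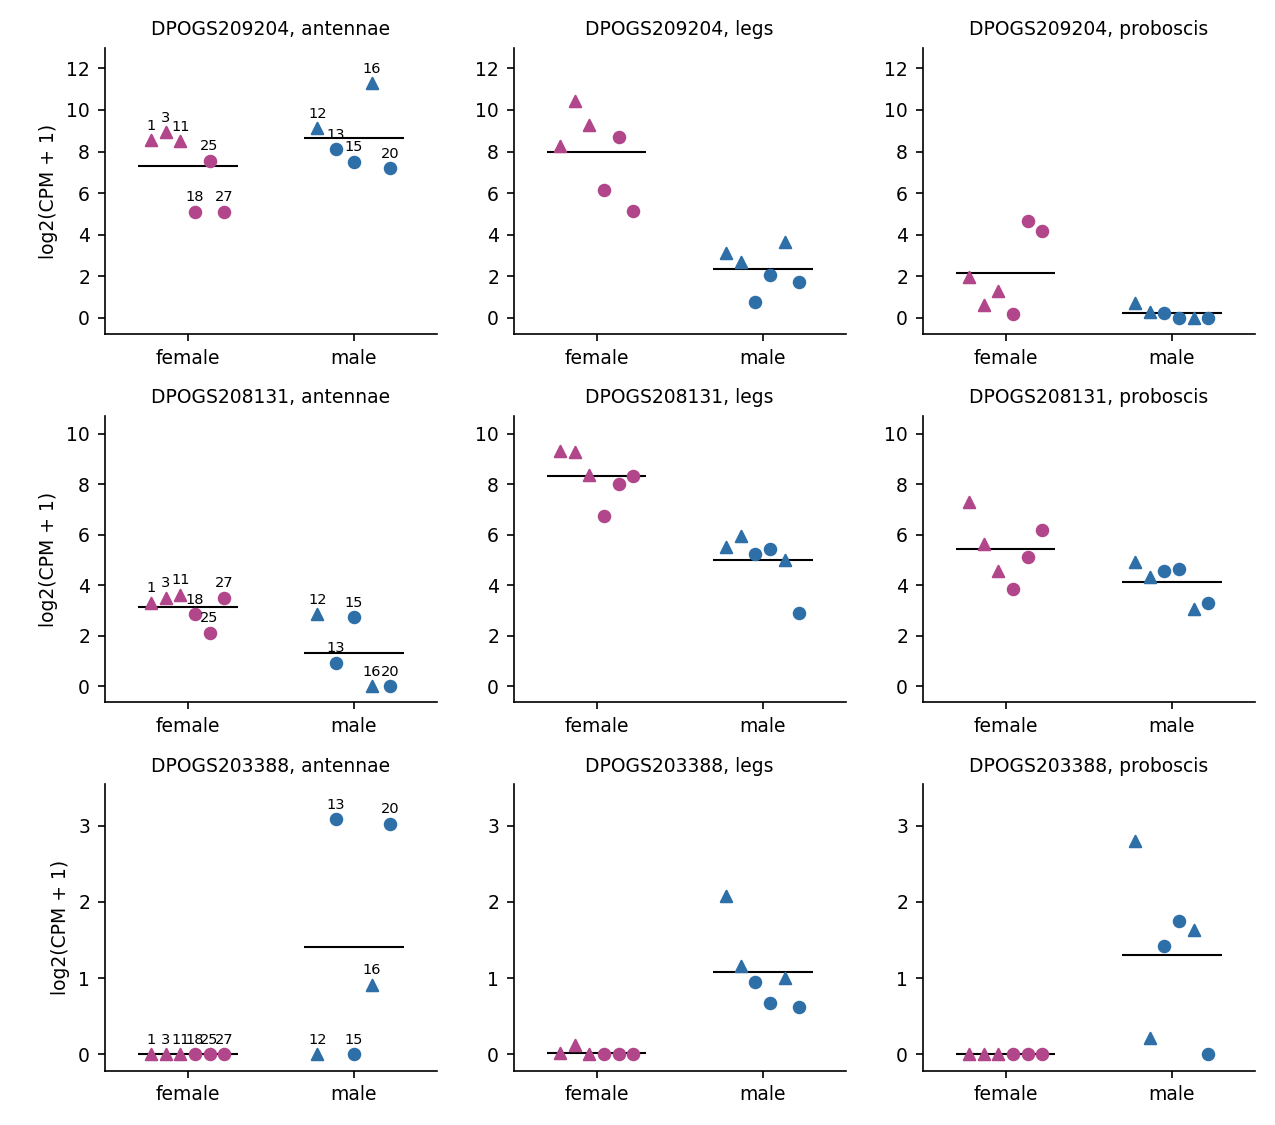
Level as log2(CPM + 1), scaled within each tissue, of 3 genes that differ between the sexes in legs, by tissue and sex. Circles are batch 1, triangles batch 2, lines the means, and animal numbers are given in antennae. DPOGS209204 separates the sexes in legs and overlaps in antennae, and DPOGS203388 lies at 0 in all 6 female antennae and in males 12 and 15.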

How the data were processed

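The authors deposited unscaled read counts, whole numbers for each gene model in 35 libraries. Limma, FastQC (0.11.5), featureCounts (1.5.2) and HISAT2 (2.0.5) are named in the submitters' processing notes. Per the labels' protocols the libraries were strand-specific mRNA libraries. Not given in the sources used here are the genome build, the annotation, the strand setting and how multi-mapping reads were handled, so genes with near-identical copies or with a partner on the other strand are uncertain.

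Counts were analysed with R 4.3.3, edgeR 4.0.16, DESeq2 1.42.0 and limma 3.58.1, and figures drawn with matplotlib 3.10.9. Filtering by filterByExpr on the 6 sex and tissue groups kept 11804 of 15130 rows. The 3326 rows removed held 0.0461% of antennal counts. The 11 antennal libraries were fitted alone (glmQLFit and glmQLFTest, sex and batch as terms, TMM scaling), with Benjamini-Hochberg adjustment over all 11804 genes and a threshold of 0.05. Standard errors come from the quasi-likelihood F statistic, and counts of intervals inside 2-fold use the unshrunk coefficients. Differences between tissues in the sex difference were tested in 1 fit of the 35 libraries with batch. When each tissue was fitted alone, batch called 4873 genes in legs (41.3%), 1 in antennae and 0 in proboscis. The effect of this inequality on the fit of 35 libraries was not tested. Each library is 1 animal, so p-values within antennae measure the spread between animals. The main fit of 35 libraries had no term for the animal, so the tissues of 1 animal entered as separate libraries. Adding the animal as a block, through its number in the labels, was tried as an alternative. Library measures were compared with an exact permutation test over 462 arrangements. The scripts were tested on simulated data. Recovery of changed genes was required only at a spread below that seen in antennae. That test therefore does not show how many true differences would be called here. Without gene names, at most 2 genes each way are named, those with the smallest p among genes without overlap between the sexes and at least 1 CPM in the higher sex, and of the genes called in legs those with the largest fold changes. The lists of chemosensory, clock, sex determination and cell type genes were void. Comparison, rules and lists were chosen with earlier results of these data known.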

Additional observations from a re-analysis of the deposited data

Results flagged for a closer look

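Among 20 groups of values examined (7 named genes and 3 library measures in each sex), 3 held a library far from the others of its sex. The rule is set to flag about 1 group in 20 by chance. That rate need not hold for genes picked on these same libraries, so the 3 flags are not set against it. Male 12 had 0 CPM of DPOGS207020, while the next male had 2.09 CPM. Male 12 also had 50.7 CPM of DPOGS200512, and the next male 15.3 CPM. Male 16 had 2510 CPM of DPOGS209204, and the next male 557 CPM. Of these the library of male 12 is among the 4 with the fewest genes in the draw and that of male 16 is not.

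DPOGS209204 had a sex difference in antennae that differed from that in legs by -8.01 on the log2 scale (edgeR, adjusted p = 0.0176), higher in 6 of 6 female legs than in any male leg and overlapping in antennae.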

How the results depend on the processing

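The count of 0 genes called between the sexes in antennae was the same in 24 of 26 alternatives, among them other scalings, filters, limma voom, thinning to 2000000 counts, each batch alone and each library left out (0 genes each, with 257 to 491 at an unadjusted p below 0.05). The exceptions were DESeq2, with 12 genes, and the fit of all 35 libraries, with 4. Of the 7 named genes 6 kept the sign of their antennal difference in 26 of 26 alternatives, and DPOGS203388 did so in 25 of 25. The filter on antennae alone left that gene out. For the 4 genes picked for not overlapping between the sexes, the kept sign largely follows from the choice. Leaving out single libraries gave 50 to 90 genes without overlap between the sexes instead of 36 (an alternative added after the data were seen, in which a smaller group overlaps less by construction). It gave 0 to 3 genes for batch, where DESeq2 gave 97, and 0 to 7 and 0 to 10 genes for the sex difference in antennae against that in legs and in proboscis. The 7 and the 10 genes came without male 13, and 2 against legs came without male 20. Without the 1 antennal library under 2000000 counts, female 11, 0 genes were called against legs. The percentage of counts in the 10 most abundant genes differed between the sexes by -0.213 points in batch 1 instead of 0.243. The causes were not tested.

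With the animal as replicate block, 1 gene was called against legs (DPOGS209204, adjusted p = 0.0302) and 0 against proboscis. The block thus changed no call. The adjusted p of DPOGS209204 against proboscis was 0.863 with the block, against 0.102 in the main edgeR fit. No paired analysis was possible for the sexes within antennae because no animal number occurs in both.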

Other observations

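Of the 15 genes with the smallest p between the sexes in antennae, 4 have identifiers within 70 consecutive numbers, a stretch that holds 63 of the genes tested. All 4 were higher in females. Whether neighbouring numbers are neighbours in the genome is not given in the sources used here, and the 4 were noticed after their values were seen.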
